A study of Mus musculus with 15 samples.

Results

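The mitochondrial genome genes are the 37 genes whose symbols start with mt-, out of 55487 genes in the deposited gene table. They comprise 13 protein genes, 2 rRNA genes and 22 tRNA genes, all on chromosome M, and membership went by symbol. PolyA RNA was sequenced from TTF cells, a cultured cell type that the labels do not spell out, of female C57BL6/CAST hybrid origin. The 3 KO libraries analysed here are of genotype SIRT7-KO, and their columns carry the numbers 2, 9 and 22. The series lists further SIRT7-KO libraries, which were not analysed. The 3 WT libraries are wild type for SIRT7 by their titles, which read S7WT_TTF, and are numbered 1, 2 and 3. SIRT7 is a nuclear NAD-dependent deacylase of the sirtuin family. Every library shares the sex, the hybrid strain and the cell type, and none carries an added-back SIRT7. Columns KO 9 and KO 22 match later titles of the series, whereas the WT columns match earlier ones. Whether they were prepared together is not known here, so any such difference cannot be told apart from genotype. The KO numbers match the titles of 3 separate KO lines, so each KO library may be 1 line, while nothing says that the WT libraries came from separate cultures or animals. If they did not, the p-values below measure only the spread between these libraries.

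Mitochondrial DNA is a small circular genome passed on by the mother. Both of its strands are transcribed into long precursors in which tRNAs stand between most of the rRNA and mRNA sequences, and enzymes that cut at both ends of each tRNA release the mature RNAs. The mRNAs and rRNAs then receive short polyA tails, and the mRNAs encode subunits of respiratory complexes I, III, IV and V. Fragments of this genome have also been copied into nuclear chromosomes over evolution, where they lie as pseudogenes that resemble the originals closely. A count on a short tRNA gene can come from a longer transcript that runs through it, and neighbouring genes of 1 precursor are not independent observations. As polyA RNA was sequenced, counts on tRNA genes are not read here as levels of the mature tRNAs.

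Total gene counts lay between 61065582 and 61506413 per library. The Sirt7 gene had 512, 694 and 787 counts in KO libraries, against 833, 1107 and 598 in WT libraries, so its gene count did not separate the groups. The counts of its transcript Sirt7-201 did, with 2, 0 and 0 in KO libraries against 53, 58 and 159 in WT libraries. Of 10 fibroblast markers, 8 exceeded 1 CPM (counts scaled to 1000000 gene counts per library) in every library, and their summed level was 26018 to 34572 CPM in KO libraries and 15753 to 16004 CPM in WT libraries. Much of this sum was Col1a1, at 11533.5 to 15826.9 CPM in KO libraries and 7383 to 7449 CPM in WT libraries, and not every marker was higher in KO. Thy1 stood at 0.195 CPM in KO 9 and at 21.6 and 71.5 CPM in KO 2 and KO 22, against 98.6 to 101 CPM in WT libraries. Pdgfra stood at 9.46, 11.4 and 81.3 CPM in KO libraries, against 68.6, 76.0 and 73.5 CPM in WT libraries. The summed level of 15 markers of other cell types was 7.47 to 9.78 CPM in KO libraries and 6.83 to 7.86 CPM in WT libraries, with Cd3e, Cdh5 and Myod1 at 0 in all. The KO libraries differed more among themselves than the WT libraries: the genome 1 share of an autosome's allele-assigned counts spanned up to 32.0 percentage points across KO libraries and up to 1.80 across WT libraries. Their part in the results below was not tested. In bulk RNA, fewer cells of a type and less RNA per cell cannot be told apart.

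The tRNA genes that passed the test of KO against WT are shown first, with 1 neighbour of mt-Td, because the results turn on them. Sequences are the GENCODE M21 transcripts on GRCm38, written 5′ to 3′ on the gene's own strand as DNA letters, with the anticodon in capitals. mt-Td encodes the tRNA for aspartate (chrM:6942-7011, plus strand), mt-Tl1 a tRNA for leucine (chrM:2676-2750, plus strand), mt-Tm the tRNA for methionine (chrM:3845-3913, plus strand) and mt-Ts1 a tRNA for serine (chrM:6870-6938, minus strand). mt-Ts1 is the nearest tRNA gene to mt-Td and is shown for comparison.
mt-Td: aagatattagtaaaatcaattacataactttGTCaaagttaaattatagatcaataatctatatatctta
mt-Tl1: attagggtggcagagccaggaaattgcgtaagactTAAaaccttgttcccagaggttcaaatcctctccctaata
mt-Tm: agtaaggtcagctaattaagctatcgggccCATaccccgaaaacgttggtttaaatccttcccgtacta
mt-Ts1: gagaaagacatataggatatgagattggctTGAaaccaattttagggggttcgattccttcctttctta
The GC content was 17.1% in mt-Td, against 44.0% in mt-Tl1, 44.9% in mt-Tm and 37.7% in mt-Ts1.

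Mitochondrial genes took a smaller share of the counts in KO libraries. They held 1.08%, 1.17% and 1.25% of all gene counts in KO 2, KO 9 and KO 22, against 1.44%, 1.40% and 1.58% in WT 1, WT 2 and WT 3. The means were 1.16% ± 0.09 in KO and 1.47% ± 0.09 in WT (SD, n = 3 each), and the groups did not overlap. Protein genes supplied most of this, with 1.12% ± 0.09 in KO and 1.40% ± 0.09 in WT. The rRNA genes held 0.0424% ± 0.0066 in KO and 0.0683% ± 0.0013 in WT, again without overlap. The tRNA genes held 0.0062% ± 0.0012 in KO and 0.0075% ± 0.0012 in WT, a difference of about the size of the SD, and their ranges overlapped.

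In a fit across all genes (edgeR's quasi-likelihood test with Benjamini-Hochberg adjustment, passed at an adjusted p under 0.05), 29 of the 37 genes had enough counts to be tested. Of these, 1 was higher in KO, 5 were lower and 23 did not pass, and the other 8 genes, all tRNAs, were too low for the test. The background was 3.54% of 16678 tested genes higher in KO and 3.19% lower, or 6.73% in either direction. The gene that rose was mt-Td. The 5 that fell were mt-Rnr2, mt-Tl1, mt-Nd1, mt-Tm and mt-Nd2, which lie on the plus strand in 1 stretch of the genome (chrM:1094-4951), with mt-Ti and mt-Tq, both untested, between them. The median log2 fold change, KO over WT, was −0.27 over the 29 tested mitochondrial genes, of which 26 were below 0, and 0.02 over all tested genes, of which 48.4% were below 0. Counting all 37 genes, 18 had every KO library below every WT library in CPM, 1 had every KO library above and 18 overlapped. Over all tested genes, 20.2% had every KO library lower and 15.7% had every KO library higher, or 35.9% together. These shares leave out untested genes, whereas the 18 lower mitochondrial genes include the untested mt-Ti and mt-Tq.

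**Figure D1:**
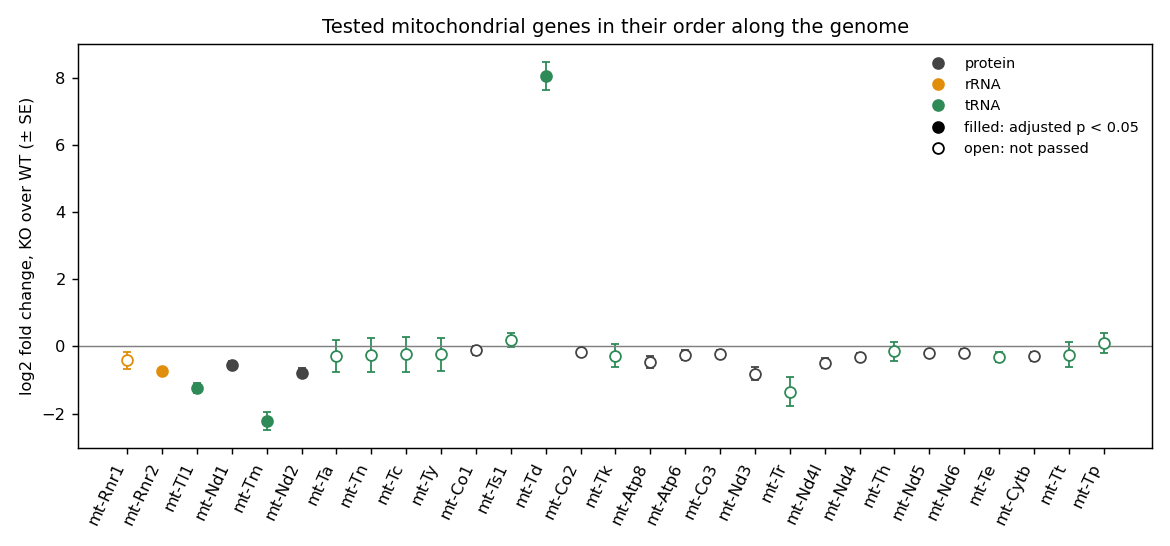
Log2 fold changes of the 29 tested mitochondrial genes, KO over WT, in their order along the genome. The y axis is the log2 fold change with bars of 1 SE, colours give the gene class and filled points passed the test. mt-Td stands at 8.04, the 5 genes that fell lie near the left end, and the other points lie between −1.35 and 0.20.

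The 2 rRNA genes encode the small (mt-Rnr1) and large (mt-Rnr2) RNAs of the mitochondrial ribosome and stand next to each other with mt-Tv between them. mt-Rnr2 had 21715, 20327 and 17823 counts in KO libraries, against 32693, 33762 and 34536 in WT libraries. The highest KO library was well below the lowest WT library. Its level fell to 326 ± 32.4 CPM in KO, against 549 ± 13.1 CPM in WT (SD, n = 3 each), a log2 fold change of −0.72 (SE 0.09, edgeR adjusted p = 0.0124). mt-Rnr1 had 8623, 4724 and 4737 counts in KO libraries, against 8624, 7647 and 8379 in WT libraries. KO 2 stood at the WT level while KO 9 and KO 22 were below all WT libraries, and the log2 fold change of −0.42 (SE 0.24) did not pass (edgeR adjusted p = 0.321). For each 100 mt-Rnr2 counts there were 39.7, 23.2 and 26.6 mt-Rnr1 counts in KO libraries and 26.4, 22.6 and 24.3 in WT libraries, so KO 2 alone stood apart.

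All 13 protein genes were tested: 2 fell, 0 rose, and all 13 log2 fold changes were below 0, with a median of −0.30. In 11 of them every KO library lay below every WT library; mt-Co1 and mt-Atp6 overlapped. Per kb of gene length, levels ran from 122 (mt-Atp6) to 1976 (mt-Co1) CPM in KO and from 149 (mt-Atp6) to 2277 (mt-Cytb) CPM in WT. This order rests on how counts were shared with nuclear copies, described below. With the counts of the near-identical copies added, levels per kb ran from 171 (mt-Atp8) to 2675 (mt-Co2) CPM in KO and from 239 (mt-Atp8) to 3053 (mt-Co2) CPM in WT. Less similar copies were left out of these sums. Among them, Gm13340 of mt-Co1 had 87598, 113940 and 101008 counts in KO libraries and 117074, 108555 and 123958 in WT libraries. The highest gene may therefore differ with all copies added. Both protein genes that fell encode membrane-arm subunits of complex I, the NADH dehydrogenase that feeds electrons into the chain. mt-Nd1 had 60362, 54955 and 65578 counts in KO libraries, against 84547, 88114 and 98876 in WT libraries. Its log2 fold change was −0.55 (SE 0.11, edgeR adjusted p = 0.0372). mt-Nd2 had 37509, 37337 and 41815 counts in KO libraries, against 74133, 55605 and 75124 in WT libraries, with a log2 fold change of −0.78 (SE 0.14, edgeR adjusted p = 0.0330). In both genes the groups were well apart, and for mt-Nd2 the WT libraries spread more than the KO libraries.

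The other complex I genes did not pass. mt-Nd3 had the lowest log2 fold change among protein genes, −0.81 (SE 0.20, edgeR adjusted p = 0.0608), with 7565, 4623 and 6215 counts in KO libraries against 10876, 9579 and 12463 in WT libraries. Its groups did not overlap, but KO 2 and KO 9 differed by more than KO 2 and WT 2. mt-Nd4l had a log2 fold change of −0.49 (SE 0.15, edgeR adjusted p = 0.102) and mt-Nd4 one of −0.31 (SE 0.12, edgeR adjusted p = 0.169). mt-Nd5 had −0.19 (SE 0.09, edgeR adjusted p = 0.253). mt-Nd6, the only protein gene on the minus strand, had 13923, 13190 and 13948 counts in KO libraries, against 15875, 14198 and 18358 in WT libraries, with a log2 fold change of −0.20 (SE 0.11, edgeR adjusted p = 0.309). It overlaps mt-Nd5 by 14 bases on the opposite strand. The strand setting of the counting is not given, so reads in the overlap cannot be told apart. For the same reason, reads from the opposite strand elsewhere in mt-Nd6, or in the minus-strand tRNA genes, may have been counted to them.

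Complex III, IV and V genes did not pass either. mt-Cytb, the cytochrome b of complex III, had 109993, 121930 and 148266 counts in KO libraries, against 155585, 153306 and 170377 in WT libraries. KO 22 came close to WT 2, and the log2 fold change was −0.30 (SE 0.13, edgeR adjusted p = 0.221). Complex IV is cytochrome c oxidase, which passes electrons to oxygen. mt-Co1 averaged 3052 ± 361 CPM in KO and 3395 ± 256 CPM in WT, a log2 fold change of −0.12 (SE 0.12, edgeR adjusted p = 0.570). mt-Co2 had a log2 fold change of −0.17 (SE 0.09, edgeR adjusted p = 0.270) and mt-Co3 one of −0.23 (SE 0.11, edgeR adjusted p = 0.235). The ATP synthase genes mt-Atp8 and mt-Atp6, which overlap by 43 bases on the same strand, had log2 fold changes of −0.45 (SE 0.18, edgeR adjusted p = 0.168) and −0.26 (SE 0.15, edgeR adjusted p = 0.336).

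**Figure D2:**
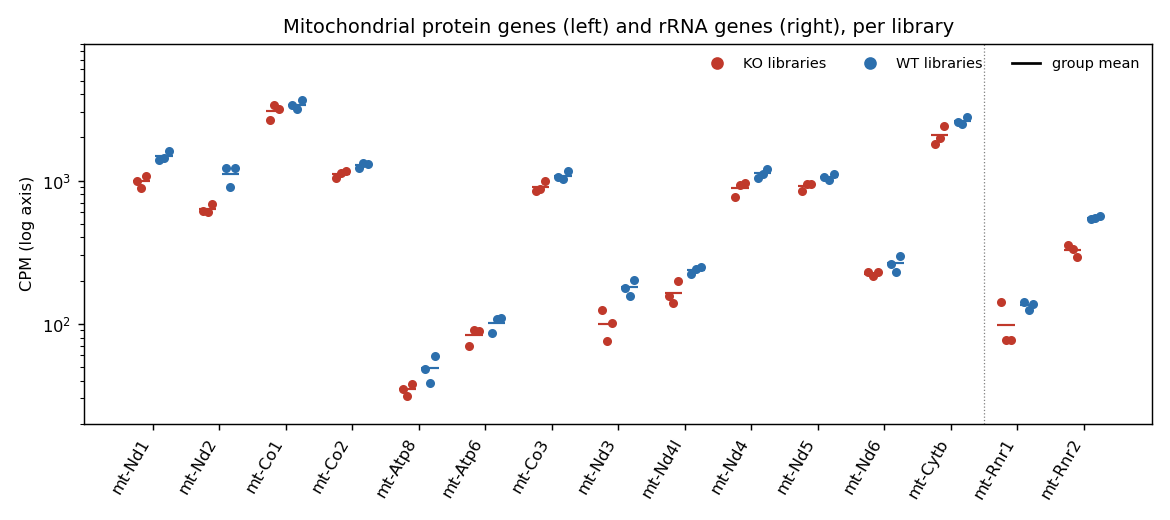
Levels of the 13 protein genes and 2 rRNA genes in each library. The y axis is CPM on a log scale, KO libraries stand left of WT libraries for each gene, and short lines are group means. The groups separate in all protein genes except mt-Co1 and mt-Atp6, and in mt-Rnr2, while for mt-Rnr1 KO 2 lies among the WT libraries.

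Within the counts given to mitochondrial protein genes, complex I took a smaller part and complex IV a larger part in KO libraries. Complex I genes made up 36.6%, 33.7% and 34.8% of protein gene counts in KO libraries, against 39.3%, 38.4% and 39.4% in WT libraries. Complex IV genes made up 44.7%, 47.6% and 44.0% in KO libraries, against 41.1%, 41.6% and 41.0% in WT libraries. Neither pair of ranges overlapped, and no test was run on these shares. All shares here leave out counts that went to nuclear copies, described below. Gm10925, for example, held 88.5% of the counts of its pair with mt-Atp6 in KO and 88.4% in WT. Shares with the copies added were not calculated, so these values do not give the make-up of the mRNA itself. Complex III averaged 18.5% ± 1.42 in KO and 18.7% ± 0.18 in WT, and complex V 1.05% ± 0.03 in KO and 1.07% ± 0.08 in WT. mt-Co1 alone took 27.3% ± 2.17 in KO and 24.3% ± 0.35 in WT, while mt-Nd2 took 5.70% ± 0.32 in KO and 7.96% ± 1.03 in WT. The complex I genes did not all move alike. The mean shares of mt-Nd1 (8.85% in KO, 10.6% in WT), mt-Nd3 (0.91%, 1.28%) and mt-Nd4l (1.47%, 1.70%) were also lower in KO. mt-Nd4 was nearly equal (7.92% in KO, 8.03% in WT). mt-Nd5 (8.20% in KO, 7.62% in WT) and mt-Nd6 (2.01%, 1.88%) were higher in KO.

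Among the 22 tRNA genes, 14 were tested, of which 1 rose, 2 fell and 11 did not pass. mt-Td had 591, 878 and 688 counts in KO libraries, against 1, 3 and 4 in WT libraries. All 3 KO libraries were high and all 3 WT libraries were close to 0. The sums were 2157 counts in KO and 8 in WT, a ratio of 270 with a 95% exact interval of 137 to 626 that covers counting error only. The fitted log2 fold change was 8.04 (SE 0.41, edgeR adjusted p = 0.0010). The allele-split table of the same libraries gave mt-Td totals of 581, 848 and 669 in KO libraries, against 1, 8 and 18 in WT libraries, a ratio of 77.9 with a 95% exact interval of 53.4 to 119. With the totals of that table for all genes, the fitted log2 fold change was 6.30 (edgeR adjusted p = 0.0091). The groups were far apart in both tables, but the size of the ratio rests on a few WT counts. It made up 12.7%, 25.8% and 20.6% of all mitochondrial tRNA counts in KO libraries, against 0.02%, 0.08% and 0.08% in WT libraries. Without mt-Td, the tRNA genes summed to 4067, 2527 and 2654 counts in KO libraries, against 4995, 3761 and 5114 in WT libraries, and KO 2 lay above WT 2.

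The neighbours of mt-Td did not pass the test. mt-Ts1, which lies just before it on the opposite strand, had 147, 172 and 181 counts in KO libraries, against 149, 130 and 167 in WT libraries, and the groups overlapped. Its log2 fold change was 0.20 (SE 0.20, edgeR adjusted p = 0.583). mt-Co2, which starts just after mt-Td on the same strand, had 63588, 69360 and 71472 counts in KO libraries, against 74685, 81013 and 79807 in WT libraries. For each 100 mt-Co2 counts there were 1.05 ± 0.19 mt-Td counts in KO and 0.0034 ± 0.0019 in WT (SD, n = 3 each). Per kb of length, mt-Td stood at 168 CPM in KO and 0.620 CPM in WT, and mt-Co2 at 1626 CPM in KO and 1871 CPM in WT.

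The tRNA genes that fell both lie beside protein genes that fell. mt-Tl1 lies between mt-Rnr2 and mt-Nd1 and had 500, 531 and 646 counts in KO libraries, against 1260, 1332 and 1483 in WT libraries. Its log2 fold change was −1.24 (SE 0.15, edgeR adjusted p = 0.0125). mt-Tm lies directly before mt-Nd2 and had 54, 40 and 66 counts in KO libraries, against 279, 210 and 272 in WT libraries. Its log2 fold change was −2.21 (SE 0.27, edgeR adjusted p = 0.0123). In both genes all KO libraries were below all WT libraries, and the counts were also lower relative to the mRNA that follows. For each 100 mt-Nd1 counts there were 0.828, 0.966 and 0.985 mt-Tl1 counts in KO libraries, against 1.49, 1.51 and 1.50 in WT libraries. For each 100 mt-Nd2 counts there were 0.136 ± 0.026 mt-Tm counts in KO and 0.372 ± 0.009 in WT.

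The minus-strand tRNA genes between mt-Nd2 and mt-Co1, for the tRNAs of alanine (mt-Ta), asparagine (mt-Tn), cysteine (mt-Tc) and tyrosine (mt-Ty), varied together from library to library. mt-Tn had 725, 227 and 262 counts in KO libraries, against 651, 298 and 524 in WT libraries. KO 2 was the highest library and KO 9 the lowest, with the WT libraries between KO 2 and KO 22. mt-Ty followed the same order, with 540, 178 and 187 counts in KO libraries and 458, 229 and 394 in WT libraries. The counts of mt-Ta, mt-Tn and mt-Tc for each 100 of mt-Ty were 98.4 ± 6.7, 134 ± 6.3 and 104 ± 6.3 in KO, and 99.9 ± 1.8, 135 ± 6.3 and 104 ± 2.6 in WT. Their log2 fold changes lay between −0.29 and −0.23 with SEs of 0.48 to 0.51, and none passed.

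mt-Te, the tRNA for glutamate on the minus strand beside mt-Nd6, had 884, 910 and 795 counts in KO libraries, against 1091, 961 and 1243 in WT libraries. Its groups did not overlap, but the log2 fold change of −0.32 (SE 0.14) did not pass (edgeR adjusted p = 0.210). mt-Tr, the tRNA for arginine, had 8, 5 and 4 counts in KO libraries, against 11, 14 and 20 in WT libraries (log2 fold change −1.35, SE 0.43, edgeR adjusted p = 0.111). The tRNA genes for lysine (mt-Tk), histidine (mt-Th), threonine (mt-Tt) and proline (mt-Tp) had 7 to 34 counts in KO libraries and 11 to 35 in WT libraries, overlapped between groups and did not pass. mt-Tw, for tryptophan, had 6, 10 and 6 counts in KO libraries against 20, 6 and 16 in WT libraries and was not tested. The remaining 7 tRNA genes (mt-Tf, mt-Tv, mt-Ti, mt-Tq, mt-Tg, mt-Ts2 and mt-Tl2) had 2 to 10 counts per library in KO and 2 to 17 in WT, and were not tested. Of these, mt-Ti with 5, 6 and 6 counts in KO libraries against 10, 11 and 9 in WT libraries, and mt-Tq with 5, 6 and 4 in KO libraries against 12, 10 and 17 in WT libraries, did not overlap between groups. In a fit with no filter on low counts neither passed (edgeR adjusted p = 0.348 and 0.164).

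**Figure D3:**
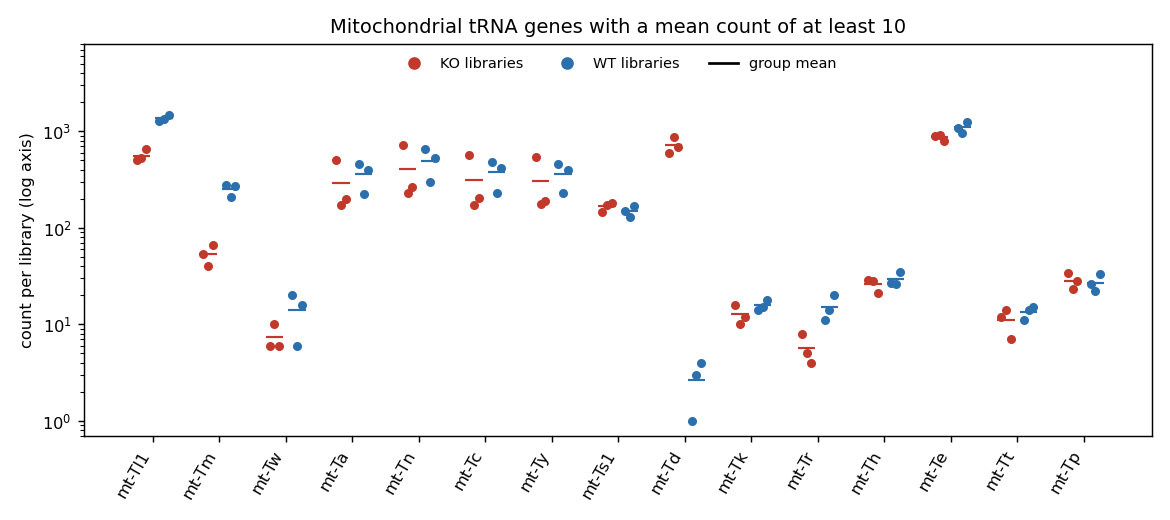
Counts of the 15 tRNA genes with a mean of at least 10 counts, in genome order. The y axis is the count per library on a log scale, KO libraries stand left of WT libraries, and short lines are group means. mt-Td stands at 591 to 878 in KO and at 1 to 4 in WT, mt-Tl1 and mt-Tm are lower in KO, and the run from mt-Ta to mt-Ty shows KO 2 above the other KO libraries.

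Nuclear copies bear on how these counts were shared out. A search of the mitochondrial genes against all GENCODE M21 transcripts found 17 nuclear copies with at least 90% identity over at least 100 bases. Of these, 7 were at least 99% identical and lie side by side on the minus strand of chromosome 1 (chr1:24611535-24616197, GRCm38), where they correspond to chrM:6390-11042. In that run Gm28439 matches mt-Nd4, Gm10222 mt-Nd4l, Gm28438 mt-Nd3, Gm28437 mt-Co3, Gm10925 mt-Atp6, Gm28661 mt-Co2 and Gm29216 mt-Co1, and 5 of the 7 have no differing base in the aligned part. The other two, Gm28438 and Gm29216, have 1 differing base each, T3C against mt-Nd3 and A1066T against mt-Co1, counted from 1 at the annotated start of the mitochondrial gene with the mitochondrial base first. They are shown with the differing base in capitals, because the rest of the aligned part offers no base by which a read could be placed. Another pair shows the less similar chromosome 2 copy Gm13340 of mt-Co1, which has 37 differing bases, 3 of them in the first 90.
mt-Nd3 from base 1: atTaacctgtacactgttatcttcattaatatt
Gm28438, same window: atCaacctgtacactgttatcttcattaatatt
mt-Co1 from base 1063: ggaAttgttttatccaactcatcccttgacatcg
Gm29216, same window: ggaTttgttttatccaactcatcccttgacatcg
mt-Co1 from base 1: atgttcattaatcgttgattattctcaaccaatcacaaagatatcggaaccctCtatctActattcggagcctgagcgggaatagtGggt
Gm13340, same window: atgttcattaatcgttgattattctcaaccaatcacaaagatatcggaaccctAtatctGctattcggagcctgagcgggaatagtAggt

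The chromosome 1 copies carried large counts, in proportions that were within 3 percentage points of each other between the group means. Gm10925 held 88.5% of the counts of its pair with mt-Atp6 in KO and 88.4% in WT. Gm28437 held 50.9% of its pair with mt-Co3 in KO and 51.8% in WT, and Gm10222 held 49.8% of its pair with mt-Nd4l in both groups. Gm28661 held 39.2% of its pair with mt-Co2 in KO and 38.7% in WT. Gm28438 held 25.8% of its pair with mt-Nd3 in KO and 28.4% in WT. Gm28439 and Gm29216 held the least, 8.97% and 7.58% in KO and 9.99% and 7.05% in WT. The levels per kb given above, except those with copies added, and the shares by complex leave out the counts that went to these copies.

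Adding the copies to their genes changed no call among mitochondrial genes. With the near-identical copies added, mitochondrial genes held 1.45% ± 0.11 of counts in KO and 1.82% ± 0.11 in WT. Of the 17 copies, 14 had enough counts for the test, 0 were higher in KO and 1 was lower. That copy was Gm13339 on chromosome 2, a copy of part of mt-Nd2, with a log2 fold change of −0.88 (SE 0.18, edgeR adjusted p = 0.0394) beside the −0.78 of mt-Nd2. mt-Td lies inside the copied stretch, between mt-Co1 and mt-Co2. Gm28661 and Gm29216 are 140 bases apart on chromosome 1, the same distance as between mt-Co1 and mt-Co2, and no tRNA copy is annotated in that gap. Reads from there would have no annotated gene of their own, and the sequence of the gap was not analysed here.

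**Figure D4:**
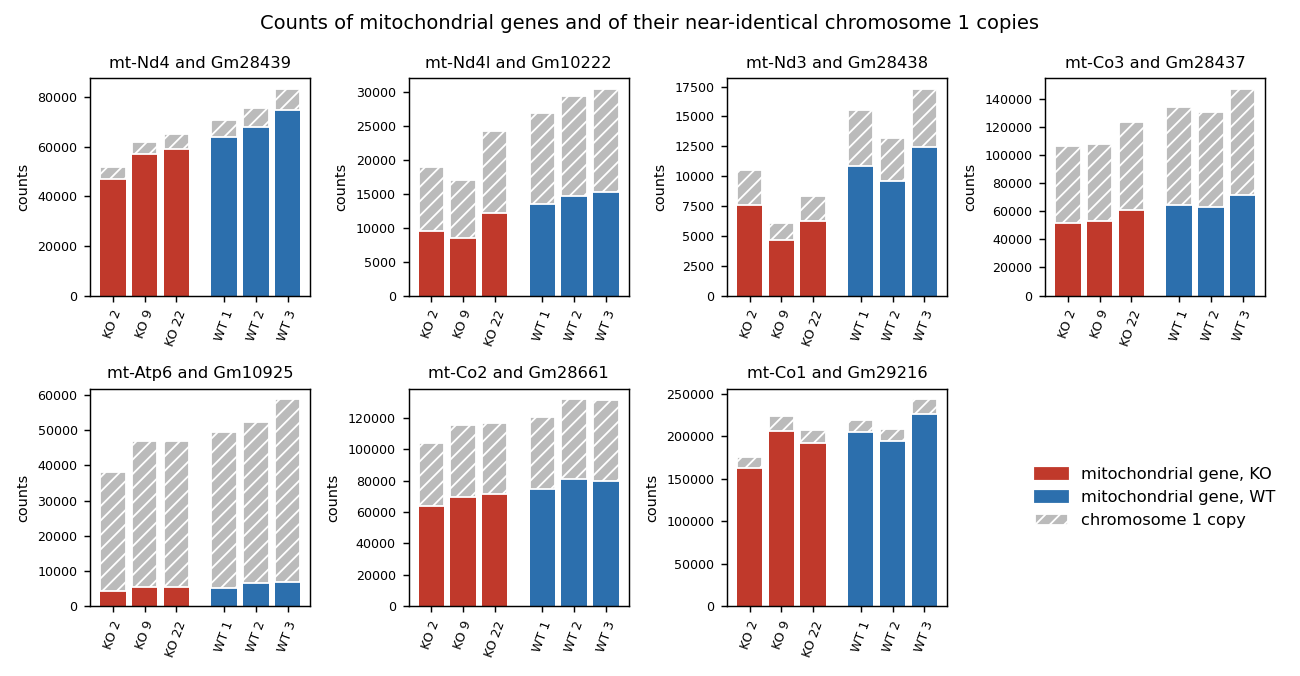
Counts of the 7 mitochondrial genes and their near-identical chromosome 1 copies in each library. The y axis of each panel is the count, solid bars are the mitochondrial gene, hatched bars stacked on them are the copy, and KO libraries stand left of WT libraries. The copy's part of each bar is alike in KO and WT, from 88.5% for mt-Atp6 to 7.58% for mt-Co1 in KO.

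The allele-split table sorts the reads of the same libraries into genome 1, genome 2 and unassigned, by the bases at which the 2 parental strains differ. Of the mitochondrial split counts, 67.8%, 67.3% and 68.4% were assigned in KO libraries, against 69.9%, 68.9% and 69.99% in WT libraries, and those assigned were almost all from genome 2. Genome 1 had 48, 65 and 62 counts in KO libraries, against 66, 78 and 90 in WT libraries. Genome 2 had 443254, 482706 and 519326 counts in KO libraries, against 613895, 588619 and 675648 in WT libraries. The genome 1 share of assigned mitochondrial counts was 0.0108%, 0.0135% and 0.0119% in KO libraries and 0.0107%, 0.0132% and 0.0133% in WT libraries, and the groups overlapped. Autosomal genes gave 50.3%, 47.3% and 51.3% in KO libraries and 52.0%, 51.9% and 52.1% in WT libraries. The labels do not say which strain genome 1 stands for, so the maternal strain is not named.

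By class, genome 1 had 44, 57 and 56 counts of protein genes in KO libraries, against 58, 59 and 77 in WT libraries. It had 4, 8 and 6 rRNA counts in KO libraries, against 8, 18 and 13 in WT libraries, and 0 tRNA counts in all libraries except WT 2, which had 1. mt-Co1 and mt-Cytb held most of the genome 1 counts, mt-Co1 with 21, 30 and 22 in KO libraries and 14, 13 and 26 in WT libraries, and mt-Cytb with 12, 15 and 16 in KO libraries and 23, 23 and 25 in WT libraries. In the test of allelic ratios, 20 mitochondrial genes had at least 20 assigned counts on average and 0 passed (edgeR's quasi-likelihood test with Benjamini-Hochberg adjustment), against a background of 23% of 12984 genes. The background cannot be set against this count, because 11 of the 20 had 0 genome 1 counts in every library and so held no ratio that could change. At an unadjusted p under 0.05 the same edgeR test found 1 gene, mt-Co1, with an edgeR adjusted p of 0.122. limma on the logit share passed 2 genes, mt-Tl1 and mt-Tm, which had 0 genome 1 counts in every library.

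The part of the counts that could be assigned at all differed with position relative to the copied stretch. All 24 genes outside it had more than 50% of their split counts assigned in every library, with 55.3% as the lowest value. mt-Nd1, mt-Nd2, mt-Nd5 and mt-Cytb were over 99% assigned in every library. Of the 11 genes wholly inside it, 7 were under 5% assigned in every library, among them mt-Co2, mt-Co3, mt-Atp6, mt-Atp8 and mt-Nd4l. mt-Nd3, which lies inside, was 32.6%, 39.0% and 33.6% assigned in KO libraries and 28.3%, 37.4% and 36.7% in WT libraries. mt-Tr was over 50% assigned in every library, and mt-Td and mt-Tg differed between libraries. mt-Co1 and mt-Nd4, which lie partly inside, were 61.6% to 63.6% and 87.9% to 90.6% assigned.

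mt-Td was split differently in the groups. In KO libraries it had 2, 0 and 2 genome 2 counts with 579, 848 and 667 unassigned, whereas in WT libraries it had 0, 5 and 14 genome 2 counts with 1, 3 and 4 unassigned. It had 0 genome 1 counts in all. Its totals in the split and unsplit tables, given above, disagree in WT 2 and WT 3. For the 15 protein and rRNA genes, split totals were 98.6% to 100.1% of the unsplit counts. Over all tRNA genes, mt-Td included, the assigned share was 70.5%, 54.2% and 62.0% in KO libraries, against 82.5%, 82.6% and 82.8% in WT libraries. Without mt-Td it was 80.5%, 72.3% and 77.5% in KO libraries, against 82.5%, 82.6% and 82.8% in WT libraries. For mt-Nd2, KO 9 stood alone with 3 unassigned counts, against 270 and 296 in KO 2 and KO 22 and 531, 351 and 521 in WT libraries.

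**Figure D5:**
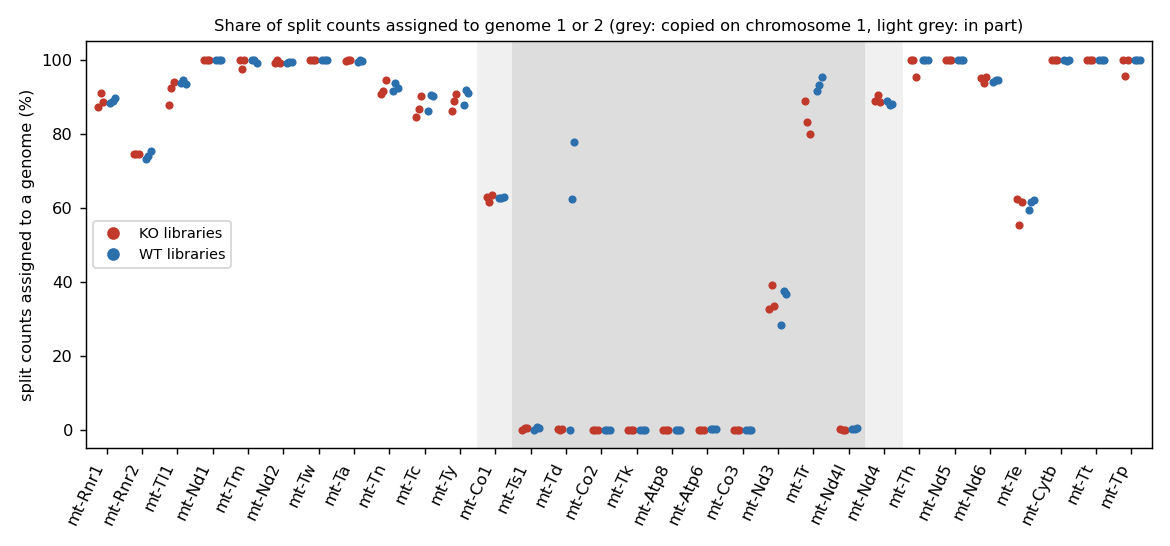
Share of split counts assigned to either parental genome for the 30 mitochondrial genes described by name, in genome order. The y axis is the percent assigned in each library, KO libraries stand left of WT libraries, and grey bands mark genes copied on chromosome 1 in full (dark) or in part (light). Most genes in the dark band lie near 0%, mt-Nd3 and mt-Tr are exceptions, and mt-Td lies near 0% in KO but at 62.5% and 77.8% in WT 2 and WT 3.

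The mitochondrial genome depends on nuclear genes for its replication, transcription and RNA processing. A list of 70 such genes was tested in the same fit: 1 rose, 1 fell and 68 did not pass, with a median log2 fold change of −0.12. That is 1.43% in each direction, beside 3.54% higher and 3.19% lower over all tested genes. With 1 gene in each direction, the list is too short to read a difference from these shares. Grsf1, an RNA-binding protein of the granules where mitochondrial RNA is processed, rose to 77.4 ± 4.8 CPM in KO, against 51.5 ± 0.3 CPM in WT (log2 fold change 0.62, SE 0.09, edgeR adjusted p = 0.0173). Lrpprc, which stabilises mitochondrial mRNAs and supports their polyadenylation, fell to 70.4 ± 13.6 CPM in KO, against 109 ± 3.1 CPM in WT (log2 fold change −0.60, SE 0.13, edgeR adjusted p = 0.0499). Its counts were 5255, 3949 and 3731 in KO libraries and 6517, 6920 and 6646 in WT libraries, with no overlap. Grsf1 did not pass without any 1 WT library, and Lrpprc did not pass without KO 9, KO 22 or any 1 WT library, with library totals only or with no filter on low counts. None of the 9 transcription genes, 11 replication genes or 16 tRNA modification genes passed. The median log2 fold change of the transcription genes, which include the polymerase Polrmt and the packaging factor Tfam, was −0.00, and that of the 10 rRNA modification genes −0.25.

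Calls of the genes that fell rested on all 3 WT libraries. Without WT 1, WT 2 or WT 3 in turn, 0 mitochondrial genes passed edgeR as lower, against 9, 13 and 6 at an unadjusted p under 0.05. The background of genes passing as lower was then 0.145%, 0.134% and 0.145%, and the count in either direction over all genes was 45 to 51, against 1123 with all libraries. The log2 fold changes stayed close to those with all libraries: over the 6 fits that left out 1 library, mt-Rnr2 ran from −0.78 to −0.66, mt-Tl1 from −1.38 to −1.16, mt-Tm from −2.42 to −2.04, mt-Nd1 from −0.64 to −0.49 and mt-Nd2 from −0.92 to −0.71. mt-Td passed as higher in each of these fits. Without KO 2 and KO 22 in turn, 5 and 7 mitochondrial genes passed as lower, with backgrounds of 5.14% and 6.86%. mt-Nd1 and mt-Nd2 did not pass without KO 2, while mt-Rnr1 and mt-Nd3 did, and mt-Nd4l and mt-Cytb passed without KO 22. Without KO 9, 3 passed with a background of 3.77%, and mt-Nd1 and mt-Nd2 were not among them. DESeq2 passed 7 as lower with a background of 8.48%, limma-voom with group weights 4 with 3.75%, the fit with near-identical copies added 5 with 3.2%, the fit on split totals 5 with 3.18%, and the fit with no filter on low counts 3 with 0.675%.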

How the data were processed

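PolyA RNA of KO and WT TTF cells was sequenced. Tables deposited by the authors were used, holding estimated counts for each gene from all reads and from reads split into genome 1, genome 2 and unassigned; the values are whole numbers. The submitters' processing notes name StringTie 1.3.3, HISAT2 2.1.0, DESeq2 1.32.0, SAMtools 0.1.19, Trimmomatic 0.36 and FastQC 0.11.3 and the builds GRCm38 and mm10, without roles. How reads that match several places were counted, the strand setting and the annotation are not given in the sources here, so counts of nuclear copies and mitochondrial genes can be exchanged.

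KO columns 9 and 22 match titles of KO lines, and column 2 matches both a KO line and a KO replicate number, so it was mapped to the KO group only. The series lists more SIRT7-KO libraries than there are KO columns, and the remaining ones were not analysed here. Libraries named SIRT7-HY or with SIRT7 restored were not analysed either. Of 55487 genes, 55227 matched GENCODE M21. KO was compared with WT by edgeR 4.0.16 in R 4.3.3 (quasi-likelihood test, TMM scaling, default filter, Benjamini-Hochberg adjustment, threshold 0.05). SEs were derived from each log2 fold change and its F statistic. The allelic test was an edgeR model with a term per library, run on genes averaging at least 20 assigned counts. Both tests were checked on simulated data with the same spread in both groups, unlike the KO and WT libraries here. CPM used all gene counts. Copies were found with BLAST 2.17.0. The interval on mt-Td is exact (scipy 1.17.1) and covers counting error only. Alternatives used DESeq2 1.42.0 and limma 3.58.1; those adding nuclear copies or using the totals of the split table were chosen after seeing the data. Named were all protein and rRNA genes, tRNA genes with a mean count of at least 10 or past the test, and listed nuclear genes past it; copies were named for their match. The members and lists were chosen with earlier results of these data known.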

Additional observations from a re-analysis of the deposited data

How the results depend on the processing

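mt-Td passed as higher under every alternative run, with leave-one-out log2 fold changes of 7.67 to 8.43 and 6.30 on the totals of the split table. The 5 genes passing as lower became 3 with no filter on low counts and 0 to 7 when 1 library was left out. mt-Rnr2, mt-Tl1 and mt-Tm lost the call only without a WT library. mt-Nd1 and mt-Nd2 also lost it without KO 2, without KO 9 or with no filter, and mt-Nd2 with group weights in limma-voom. mt-Nd3 and mt-Nd4l passed in DESeq2. The count over all genes, 1123, was 2895 in DESeq2, 396 with no filter and 45 to 2482 when 1 library was left out. The 2 calls among nuclear genes were 1 with library totals only, 11 in DESeq2, 4 with group weights, 4 on the totals of the split table, 1 with no filter and 0 to 7 in the leave-one-out fits. Allelic calls over all genes, 2992, ran from 1710 to 3822 in those fits, and mitochondrial allelic calls, 0, were 2 in limma and 0 to 1 in those fits. With all nuclear copies added, the KO minus WT difference in the share of counts, −0.308 percentage points, was −0.404, and for protein genes −0.377. The difference in genome 1 share, −0.000363 points, was 0.000270 over genes with at least 10 assigned counts and −0.00121 to 0.000261 in the leave-one-out values, and for protein genes −3.1e-05 to 0.00103. Signs also changed in leave-one-out fits of tRNA genes that did not pass: mt-Tn −0.97 to 0.026, mt-Tc −0.96 to 0.052, mt-Ty −0.94 to 0.032 and mt-Tp −0.040 to 0.26. The causes were not tested. No paired analysis was possible because KO columns are numbered 2, 9 and 22 and WT columns 1, 2 and 3, which share 1 number. Low counts limit what can be said of the 8 untested tRNA genes and of the size of the mt-Td ratio.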
